A study of Mus musculus with 13 samples.

Results

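The SR splicing factors were examined in 13 aortas as a family of 10 genes (Srsf1, Srsf2, Srsf3, Srsf4, Srsf5, Srsf6, Srsf7, Srsf9, Srsf10 and Srsf11), found by gene symbol among the 54532 genes of the deposited count table. All 10 were among the 15811 genes kept by edgeR's filterByExpr, a filter on low counts. The list was drawn up because Srsf7 was higher in one of the virus groups, so the group difference of the 10 genes is given as a description, and no p-value is given for any of them. All mice were ApoE knockout animals, a hyperlipidemic strain, and were infused with angiotensin II (AngII) from 10 weeks of age by a subcutaneous pump for up to 28 days, a treatment used to model abdominal aortic aneurysm. The 6 Ad-sham mice received an empty adenovirus and the 7 Ad-FAM3A mice an adenovirus that carries mouse Fam3a, in 5 injections into the tail vein. The methods give an EF1A promoter in the name of the construct and also name a pAd/CMV vector, and the EF1A and CMV promoters are both active in many cell types. They describe both male and female mice without giving the sex behind each aorta. Each library is labelled as 1 aorta.

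SR proteins bind pre-mRNA through RNA recognition motifs and carry a tail rich in arginine and serine, with which they help the spliceosome to recognize exons. Kinases of the SRPK and CLK families phosphorylate this tail and control the entry of SR proteins into the nucleus and their release from nuclear speckles. Many SR genes limit their own expression by splicing in a poison exon that sends the transcript to nonsense-mediated decay. In vascular smooth muscle, alternative splicing gives the contractile and non-contractile forms of several cytoskeletal proteins.

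The SR genes were GC-rich upstream of the transcription start. In the 150 bases before the RefSeq start (GRCm38.p6), G and C made up 59.3 to 80.0% of the bases in the 10 genes, with a median of 67.3%, against a median of 54% over the 32851 mouse promoters in the table. The GC box GGGCGG, read on both strands, was in 9 of the 10 windows and in 28.6% of all promoters. The letters TGACG were in 6 windows (13.3% of all promoters), CCAAT in 3 (24.5%), the ETS-type motif CCGGAAG in 2 (5.53%) and TATAAA in 2 (7.57%). The E-box CACGTG and the heat shock element GAANNTTC were in none of the 10 windows, and in 4.29% and 3.95% of all promoters. The comparison with all promoters was not matched for GC content or for expression in these aortas. Windows are shown for Srsf7, the gene whose groups did not overlap, for Srsf6, which varied with it, and for Srsf5 and Srsf9, which did not vary together with Srsf7 among aortas. Capitals mark the GC box (GGGCGG, or CCGCCC on the other strand) and CCGGAAG (or CTTCCGG), which share 1 base in one place of the Srsf5 window. The Srsf7 window is chr17:80207306-80207455 (minus strand), that of Srsf6 chr2:162931358-162931507 (plus strand), that of Srsf5 chr12:80945349-80945498 (plus strand) and that of Srsf9 chr5:115327027-115327176 (plus strand).
Srsf7: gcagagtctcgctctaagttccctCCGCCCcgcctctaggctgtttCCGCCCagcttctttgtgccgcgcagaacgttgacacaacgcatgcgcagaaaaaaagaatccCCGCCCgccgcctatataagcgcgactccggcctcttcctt
Srsf6: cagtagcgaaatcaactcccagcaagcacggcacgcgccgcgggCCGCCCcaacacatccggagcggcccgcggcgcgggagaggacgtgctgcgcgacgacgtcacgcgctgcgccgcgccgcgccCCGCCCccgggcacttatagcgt
Srsf5: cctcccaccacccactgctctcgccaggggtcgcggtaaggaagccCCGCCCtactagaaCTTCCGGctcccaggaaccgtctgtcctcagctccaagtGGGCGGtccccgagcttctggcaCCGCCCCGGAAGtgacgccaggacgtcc
Srsf9: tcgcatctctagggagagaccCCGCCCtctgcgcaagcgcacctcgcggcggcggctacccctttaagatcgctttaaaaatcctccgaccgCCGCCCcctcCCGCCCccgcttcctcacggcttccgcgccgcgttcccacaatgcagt
The Srsf7, Srsf6, Srsf5 and Srsf9 windows held 3, 2, 3 and 3 GC boxes, and CCGGAAG was found only in that of Srsf5 among the 4 shown. These matches describe letters in the windows and not sites bound in these aortas, and no binding was measured.

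Total counts per aorta ranged from 15588507 to 19797407 in Ad-sham (median 16193850) and from 14481179 to 16576977 in Ad-FAM3A (median 16013910). At this depth 3 counts equal 0.152 to 0.207 CPM (counts scaled to library size by TMM), far under the levels of the 10 genes, and these limits cover counting error only. The delivered gene did not separate the groups. Fam3a averaged 24.4 ± 4.27 CPM over 6 Ad-sham aortas and 24.0 ± 4.64 CPM over 7 Ad-FAM3A aortas (SD), for a log2 fold change of -0.03 (SE 0.16), so the second group is called the Ad-FAM3A-labelled aortas. Transcripts of Apoe, which is knocked out in both groups, were at 3.57 to 20.5 CPM in Ad-sham and 5.30 to 15.6 CPM in Ad-FAM3A-labelled aortas. Smooth muscle markers were present in every aorta, and their summed level differed widely, from 3083 to 13222 CPM in Ad-sham and from 2358 to 18978 CPM in Ad-FAM3A-labelled aortas.

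All 10 SR genes were expressed in every aorta, at levels per unit length between those of Srsf5 and Srsf4. Srsf5, an exon enhancer-binding protein also known as SRp40, was highest at 36.3 ± 5.97 CPM per kb of the deposited gene length (SD, n = 13). Srsf2, a component of nuclear speckles also known as SC35, followed at 35.0 ± 4.57 CPM per kb. Srsf6 (SRp55) was at 32.3 ± 3.96 CPM per kb, and Srsf7, an SR protein with a zinc knuckle that also takes part in mRNA export, came next at 29.3 ± 5.23 CPM per kb. The middle of the order was held by Srsf1, the prototype of the family (22.03 ± 4.24 CPM per kb), Srsf9 (18.7 ± 3.05) and Srsf3, the smallest SR protein and an adaptor for mRNA export (17.2 ± 2.64). Srsf10, which represses splicing in its dephosphorylated form (14.6 ± 3.40 CPM per kb), and Srsf11 (12.9 ± 2.55) were lower. Srsf4, also known as SRp75, was lowest at 4.74 ± 0.757 CPM per kb. These means pool the groups, and the first places depended on them. In the Ad-sham aortas Srsf5 was at 37.96 ± 7.60 CPM per kb and Srsf2 at 32.2 ± 3.85 (SD, n = 6), whereas in Ad-FAM3A-labelled aortas Srsf5 was at 34.9 ± 4.25 and Srsf2 at 37.4 ± 3.86 (SD, n = 7). The coefficient of variation over the 13 aortas lay between 12.3% for Srsf6 and 23.3% for Srsf10.

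Each gene was compared with the next in this order within each aorta by a two-sided exact permutation test over sign changes, with Benjamini-Hochberg adjustment over the 9 pairs. Of these, 4 pairs differed. Srsf6 was 1.11-fold above Srsf7, in 10 of 13 aortas (adjusted exact permutation p = 0.0280), with means of 30.3 and 24.7 CPM per kb in Ad-sham and closer means of 34.1 and 33.2 in Ad-FAM3A-labelled aortas. Srsf7 was 1.33-fold above Srsf1 in 13 of 13 aortas (adjusted exact permutation p = 0.00110, from the smallest p that 13 aortas allow, 0.000244). The place of Srsf7 rests on the length used, since it is the 1 member whose deposited length (2279 bases) is not the union of its exons in GENCODE M21 (3550 bases). With the union length Srsf7 was at 18.8 ± 3.36 CPM per kb (SD, n = 13), and the direction turned, with Srsf1 1.17-fold above Srsf7 in 12 of 13 aortas, and Srsf6 1.73-fold above Srsf7 in 13 of 13. With the longest coding transcript (2403 bases) Srsf7 was above Srsf1 in 13 of 13 aortas, as with the deposited length. Srsf3 was 1.19-fold above Srsf10 in 12 of 13 aortas (adjusted exact permutation p = 0.00513), and Srsf11 was 2.71-fold above Srsf4 in 13 of 13 aortas (adjusted exact permutation p = 0.00110). The values of Srsf11 and Srsf4 did not overlap over the aortas, and those of the other 3 pairs did. The other 5 pairs (Srsf5 and Srsf2, Srsf2 and Srsf6, Srsf1 and Srsf9, Srsf9 and Srsf3, Srsf10 and Srsf11) did not differ beyond their spread, with adjusted exact permutation p of 0.0659 to 0.614. The order as a whole also depended on the length used. With the longest coding transcript in GENCODE M21 in place of the deposited gene length, Srsf5 (92.4 CPM per kb) and Srsf2 (54.5) stayed first and second and Srsf4 (7.48) last, whereas Srsf3 moved up to stand behind Srsf2 (51.9) and Srsf7 moved down behind Srsf6 and Srsf11 (27.7).

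**Figure D1:**
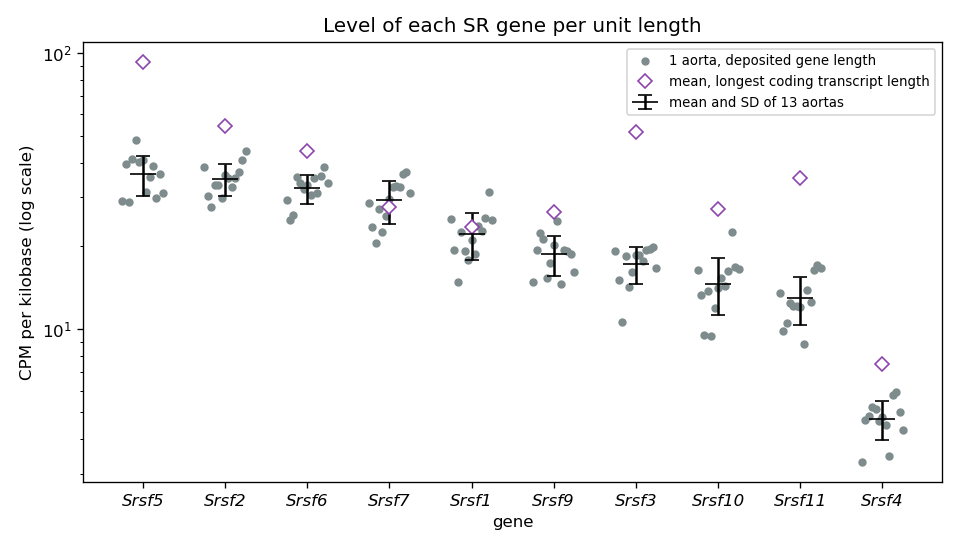
Level of each SR gene in CPM per kilobase (log axis), with 1 point per aorta (n = 13), the mean and SD as bars, and open diamonds for the mean with the longest coding transcript length. Srsf5, Srsf2, Srsf6 and Srsf7 had means between 29.3 and 36.3 CPM per kb by the deposited length (18.8 for Srsf7 by the union of its exons), Srsf4 was lowest at 4.74, and the diamonds of Srsf3 and Srsf11 stand well above their points.

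Some SR genes overlap neighbouring genes in the annotation. Srsf2 lies on the opposite strand within Mettl23 (228 to 653 counts per aorta) and overlaps Mfsd11 (up to 721 counts) over 655 bases. Srsf4 shares sequence on the same strand with A930004J17Rik (16 to 100 counts) and Srsf11 with Gm43362 (0 to 11 counts). The sources used here do not say whether strand was used in the counting, so it is not known whether reads of Srsf2 and of its antisense partners were separated. The antisense gene Gm11508 at Srsf1 and the Srsf3 pseudogene AC168269.1 had 0 counts in every aorta.

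The annotation lists a transcript marked for nonsense-mediated decay for 9 of the 10 genes, all but Srsf10, and a transcript that retains an intron for 8, all but Srsf9 and Srsf10. The deposited counts add these forms to the coding ones, so the share of poison-exon transcripts cannot be read from them.

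Srsf7 was higher in Ad-FAM3A-labelled aortas than in Ad-sham, and Srsf10 was the next in size. Srsf7 (ENSMUSG00000024097, GRCm38 chromosome 17, 80200089 to 80207305, minus strand) had 46.6 CPM in the lowest Ad-sham aorta, a median of 56.0 and 65.5 in the highest. In Ad-FAM3A-labelled aortas its lowest value was 67.3 CPM, its median 74.5 and its highest 84.6. The lowest Ad-FAM3A-labelled aorta (Ad-FAM3A1) stood above the highest Ad-sham aorta (Ad-sham1), and 7 of 7 lay on that side. Srsf7 averaged 56.2 ± 7.13 CPM over 6 Ad-sham aortas and 75.7 ± 6.19 CPM over the 7 others (SD), for a log2 fold change of 0.43 (SE 0.11), or 1.35-fold, and 2.86 times the pooled SD. The authors' mean FPKM, deposited per group, was 24.4 for Ad-sham and 33.2 for Ad-FAM3A. As background, 6 of the 15811 genes tested (0.0379%) had all Ad-FAM3A-labelled aortas above all Ad-sham aortas, 9 genes (0.0569%) had them all below, and 10.4% had a log2 fold change at least as large as that of Srsf7. These shares are printed for scale, since Srsf7 put the family forward.

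Srsf10 (GRCm38 chromosome 4, 135855747 to 135869908, plus strand) ranged from 66.4 to 115 CPM in Ad-sham, with a median of 88.1, and from 98.6 to 157 CPM in Ad-FAM3A-labelled aortas, with a median of 114. Its groups overlapped, with 3 of 7 Ad-FAM3A-labelled aortas above the highest Ad-sham aorta. Srsf10 averaged 86.8 ± 18.8 CPM over 6 Ad-sham aortas and 116 ± 19.7 CPM over the 7 others (SD), for a log2 fold change of 0.42 (SE 0.16). The highest value came from Ad-FAM3A5, and the highest Ad-sham value from Ad-sham1, the aorta that also led its group for Srsf7.

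Srsf1 and Srsf3 both shuttle between nucleus and cytoplasm. Srsf1 had 84.8, 110 and 143 CPM as its lowest, median and highest Ad-sham values and 107, 135 and 180 in Ad-FAM3A-labelled aortas, for a log2 fold change of 0.27 (SE 0.15). Srsf3 had 83.9, 123 and 151 CPM in Ad-sham and 131, 147 and 156 in Ad-FAM3A-labelled aortas, for a log2 fold change of 0.25 (SE 0.13). Both genes overlapped between groups, and the Srsf3 values of Ad-FAM3A-labelled aortas were less spread, with an SD of 8.81 CPM against 24.3 CPM in Ad-sham. For the speckle protein Srsf2 the 3 values were 81.8, 94.2 and 114 CPM in Ad-sham and 96.8, 107 and 130 in Ad-FAM3A-labelled aortas, for a log2 fold change of 0.22 (SE 0.11).

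Srsf6 had 119, 148 and 171 CPM in Ad-sham and 147, 163 and 186 in Ad-FAM3A-labelled aortas, for a log2 fold change of 0.17 (SE 0.12). Srsf11 had 83.4, 102 and 114 CPM in Ad-sham and a wider range of 74.9, 117 and 144 in the other group, for a log2 fold change of 0.24 (SE 0.16). In Srsf11 the lowest of all 13 values came from an Ad-FAM3A-labelled aorta, although that group had the higher median.

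The remaining members lay close together in both groups or ran the other way. Srsf5 was the only one of the 10 with a lower mean in Ad-FAM3A-labelled aortas, at 139 ± 17.0 CPM (SD, n = 7; 119 to 163) against 151 ± 30.3 CPM (SD, n = 6; 115 to 193) in Ad-sham, for a log2 fold change of -0.12 (SE 0.15). Srsf4 was at 16.5 ± 2.48 CPM in Ad-sham and 17.2 ± 3.03 in Ad-FAM3A-labelled aortas (log2 fold change 0.06, SE 0.16). Srsf9, a close relative of Srsf1, was at 30.4 ± 5.14 and 31.3 ± 5.30 CPM (log2 fold change 0.05, SE 0.15). All 3 differences were smaller than their standard errors.

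**Figure D2:**
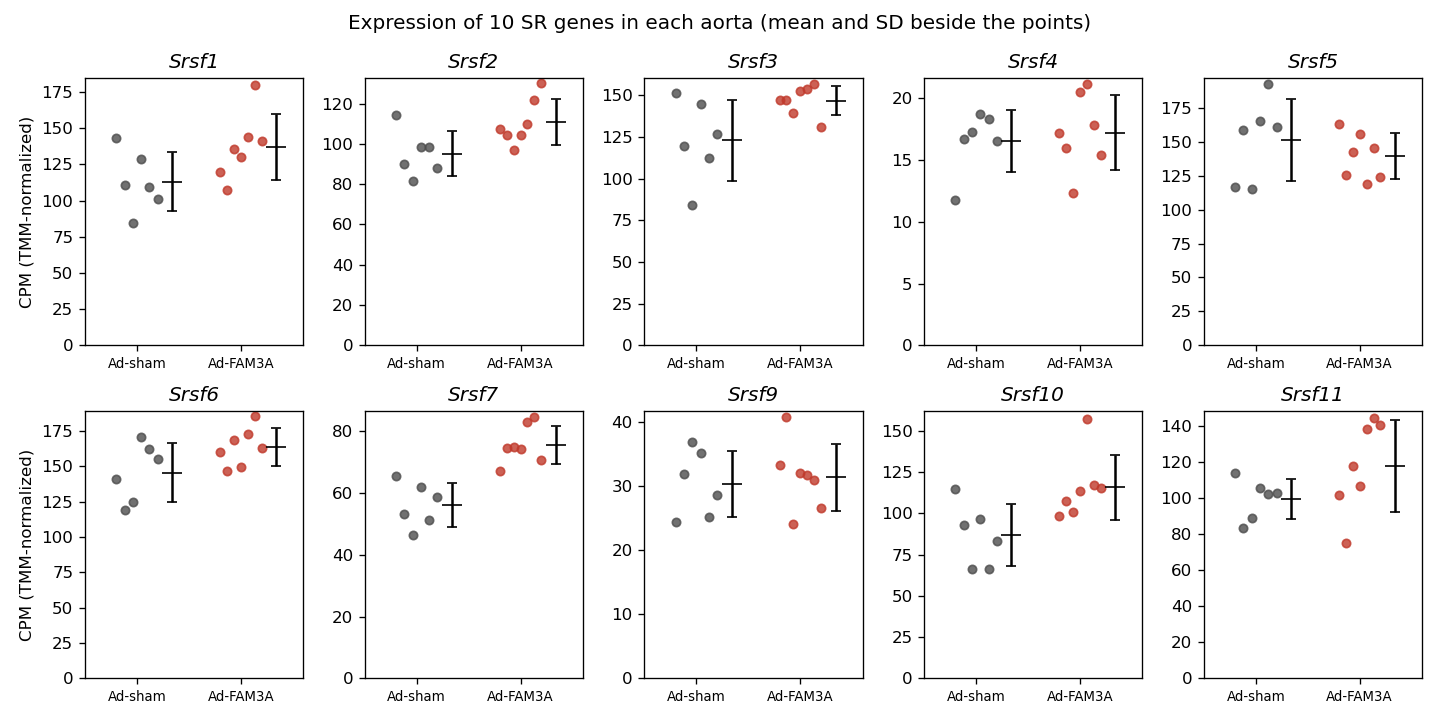
Expression of the 10 SR genes in CPM, with 1 point per aorta (6 Ad-sham, 7 labelled Ad-FAM3A) and the mean and SD beside the points; the vertical axis of each panel starts at 0. The Srsf7 points of the groups are separate, at 46.6 to 65.5 and 67.3 to 84.6 CPM, and the other 9 panels overlap.

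The log2 fold change was above 0 for 9 of the 10 SR genes, against 50.4% of all genes tested, with a median of 0.23 against 0.00319 for all genes. None of the 10 passed edgeR's quasi-likelihood test (adjusted p under 0.05 and an absolute log2 fold change above 1), and neither did any of the 15811 genes (0 called, 0%). Of all genes, 934 (5.91%) had an unadjusted p under 0.05. Of these, 471 (2.98%) had the higher and 463 (2.93%) the lower level in Ad-FAM3A-labelled aortas. On leaving out each aorta the number with an unadjusted p under 0.05 was 491 (without Ad-sham3) to 1345 (without Ad-FAM3A2). DESeq2 called 10 of all genes and limma-voom 0, and none of the DESeq2 calls was an SR gene. Nothing is read from the counts of members, because the family was chosen on this contrast.

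Leaving out each aorta in turn gave log2 fold changes of 0.38 (without Ad-sham3) to 0.48 (without Ad-sham1) for Srsf7 and 0.34 to 0.52 for Srsf10. The log2 fold change of Srsf3 was 0.16 without Ad-sham3. That of Srsf5 was -0.03 without Ad-sham5 and -0.19 without Ad-sham3. Those of Srsf4 and Srsf9 were -0.02 and -0.01 without Ad-sham1 and 0.14 and 0.12 without Ad-FAM3A3. Ad-FAM3A6 and Ad-FAM3A7 had high levels of lymphocyte genes, with the 8 B-cell markers summing to 8.25 to 840 CPM in Ad-FAM3A-labelled aortas against 12.7 to 53.3 CPM in Ad-sham. Without these 2 aortas the log2 fold change was 0.41 for Srsf7 and 0.41 for Srsf10, and decreased to 0.16 for Srsf1, 0.13 for Srsf2 and 0.11 for Srsf11. The median of the 10 genes was then 0.13. In bulk tissue, fewer cells of a type and less RNA per cell cannot be told apart.

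**Figure D3:**
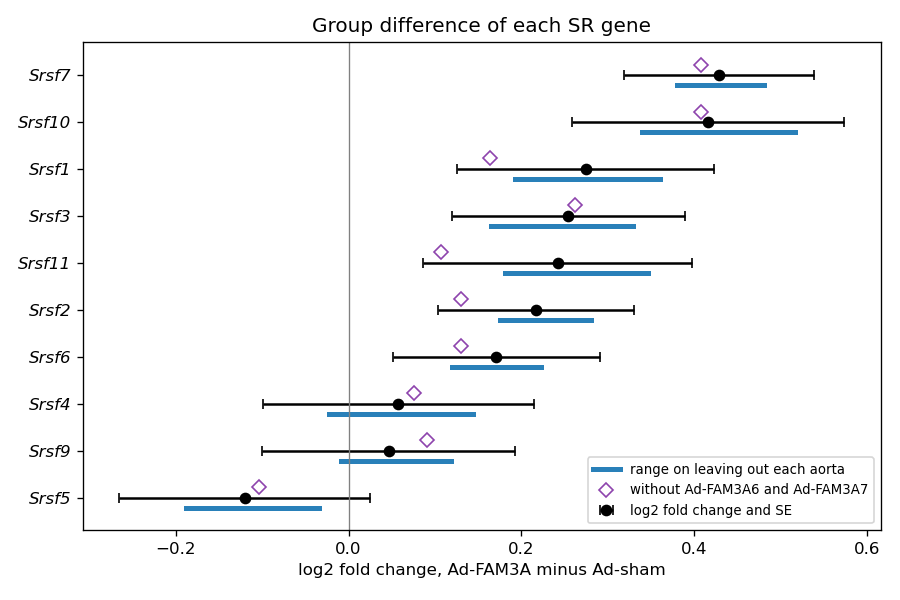
Log2 fold change of each SR gene, labelled Ad-FAM3A minus Ad-sham, with its SE as a black bar, the range on leaving out each aorta as a blue bar, and open diamonds for the value without Ad-FAM3A6 and Ad-FAM3A7. Srsf7 (0.43) and Srsf10 (0.42) are at the top and Srsf5 (-0.12) at the bottom, and the diamonds of Srsf1, Srsf2 and Srsf11 lie well to the left of their points.

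Single aortas led the members together. Ad-sham1 was the highest Ad-sham aorta for 6 of the 10 genes and the lowest for 2 (Srsf4 and Srsf9), and Ad-sham3 was the lowest for 5. Ad-FAM3A6 was the highest of its group for 5 genes. The mean log2 CPM of the 10 genes ranged from 6.04 to 6.42 in Ad-sham and from 6.34 to 6.60 in Ad-FAM3A-labelled aortas, so that the groups overlapped, and their summed CPM ranged from 746 to 1026 and from 945 to 1184. Srsf7 made up 5.45 to 6.57% of that sum in the Ad-sham aortas and 6.62 to 7.89% in the others, without overlap. This share restates the Srsf7 difference that put the family forward. The Srsf7 to Srsf5 ratio of CPM ranged from 0.266 to 0.563 and from 0.412 to 0.699, and overlapped.

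Across the 13 aortas, 7 genes (Srsf1, Srsf2, Srsf3, Srsf6, Srsf7, Srsf10 and Srsf11) varied together and Srsf4, Srsf5 and Srsf9 did not follow them, a split chosen after the values were seen. The 21 pairs within the 7 genes had a Pearson's r of log2 CPM of 0.41 to 0.88 (median 0.70), and of 0.13 to 0.86 (median 0.56) after the group means were subtracted. The 21 pairs between the 7 and the other 3 genes had an r of -0.53 to 0.20 (median -0.08), and of -0.62 to 0.38 within groups, where they overlapped the pairs of the 7 genes. Srsf7 was closest to Srsf10 (r = 0.88, 0.81 within groups) and to Srsf3 (r = 0.86, 0.86 within groups). Srsf1 and Srsf2 had an r of 0.82 (0.75 within groups). The most opposed pair was Srsf9 and Srsf11 (r = -0.53, -0.62 within groups), and Srsf5 and Srsf10 had an r of -0.43 (-0.38 within groups). All points share libraries and their scaling, so the values describe these 13 aortas. Srsf7 had an r of -0.56 with the total count of the library and of 0.19 with the mitochondrial share of counts, which was 9.19 to 17.7% in Ad-sham and 8.13 to 16.8% in Ad-FAM3A-labelled aortas.

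**Figure D4:**
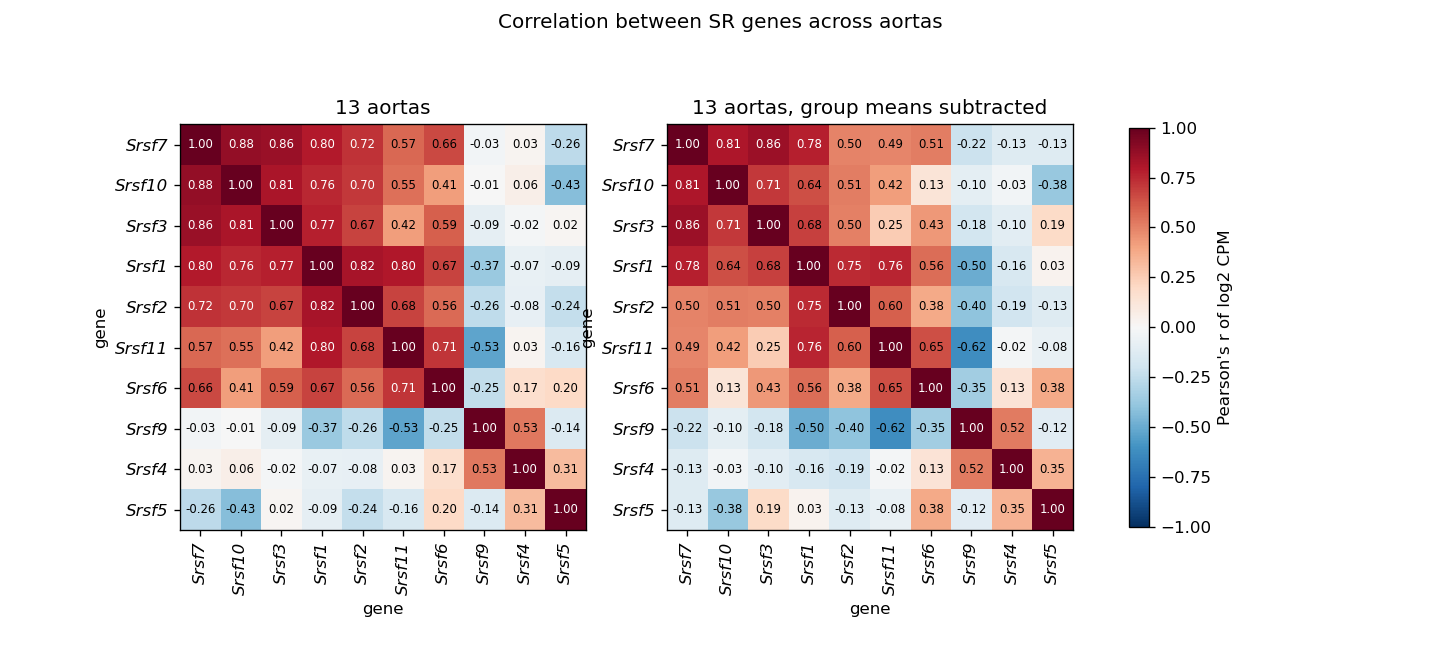
Pearson's r of log2 CPM between the SR genes over 13 aortas (left) and after subtraction of the group means (right), with red for positive and blue for negative r. The 7 genes at the upper left have r of 0.41 to 0.88 with each other, and Srsf9, Srsf4 and Srsf5 form pale or blue rows against them.

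The 5 genes most like Srsf7 across the aortas were Nap1l1, a histone chaperone (r = 0.92), Nop58, a core protein of box C/D small nucleolar RNPs (r = 0.92), Gnl3, nucleostemin (r = 0.91), Spcs3, a signal peptidase subunit (r = 0.90), and Mcl1, an anti-apoptotic BCL2 family member (r = 0.90). Their r within groups was 0.79 to 0.93. For scale, the median r with Srsf7 over 15801 other genes was -0.05, and 90 genes (0.570%) had an r above 0.8. The genes most like the mean of the 10 SR genes were Tmem123 (r = 0.94), Stk17b (0.92), Spcs3 (0.91), Nap1l1 (0.91) and Nop58 (0.90), so that 3 genes stood in both lists of 5. All of these r values are over 13 aortas.

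The kinases that phosphorylate SR proteins and the importer Tnpo3 were all measured. The log2 fold change was above 0 for 10 of 10 (50.4% of all genes), with a median of 0.15, and 0 were called. At an unadjusted p under 0.05 there were 2, both higher (2.98% of all genes). Clk1, a nuclear kinase of SR proteins, was at 72.9 to 122 CPM in Ad-sham (96.8 ± 22.04, SD, n = 6) and at 97.4 to 182 CPM in Ad-FAM3A-labelled aortas (131 ± 26.6, SD, n = 7), for a log2 fold change of 0.44 (SE 0.17). Clk4 had a log2 fold change of 0.35 (SE 0.16), the cytoplasmic kinase Srpk1 of 0.29 (SE 0.15) and Tnpo3 of 0.06 (SE 0.14). The groups overlapped for each of these kinases. The mean log2 CPM of the 10 genes of this list had an r of 0.72 with Srsf7 over the 13 aortas and of 0.44 within groups.

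Of 20 other proteins with SR-like domains or partners of the U1 particle, 17 had a log2 fold change above 0 (50.4% of all genes), with a median of 0.12. At an unadjusted p under 0.05 there were 3, all higher in Ad-FAM3A-labelled aortas (2.98% of all genes), and 0 were called. Tra2a and Tra2b are sequence-specific activators of exon inclusion. Tra2a was at 54.4 ± 10.4 CPM in Ad-sham and 74.8 ± 13.8 in Ad-FAM3A-labelled aortas (log2 fold change 0.46, SE 0.15), with groups that overlapped, and Tra2b had a log2 fold change of 0.35 (SE 0.15). Luc7l3, a U1-associated protein, was at 67.4 ± 5.37 and 85.6 ± 10.4 CPM (log2 fold change 0.35, SE 0.11). The speckle scaffold genes Son (0.18, SE 0.18) and Srrm2 (0.12, SE 0.23) had log2 fold changes close to or under their standard errors. Srsf12, a family gene outside the 10, had 0 to 62 counts per aorta and a log2 fold change of -0.54 (SE 0.87).

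The hnRNP proteins, which often oppose SR proteins at splice sites, were divided, with 16 of 26 log2 fold changes above 0 (50.4% of all genes) and a median of 0.03. Hnrnph1 was the only one of them at an unadjusted p under 0.05 (5.91% of all genes). It was at 166 ± 20.9 against 205 ± 26.0 CPM (log2 fold change 0.30, SE 0.13). The abundant Hnrnpa2b1, Hnrnpk and Hnrnpu had log2 fold changes of 0.19 (SE 0.16), 0.02 (SE 0.12) and 0.01 (SE 0.13). Of 19 tested proteins of U1, U2 and U2AF, which bind the splice sites and the branch point, 12 were above 0 (median 0.07). None had an unadjusted p under 0.05 (5.91% of all genes). Of 15 factors of nonsense-mediated decay, 11 were above 0 (median 0.09), again none with an unadjusted p under 0.05 (5.91% of all genes). Smg1, the kinase of Upf1, had the largest log2 fold change among them (0.49, SE 0.24). Of 19 tested genes listed as tissue splicing regulators, 12 were above 0 (median 0.15). Cirbp, a cold-inducible RNA-binding protein, was at 22.4 ± 8.52 CPM in Ad-sham and 13.9 ± 3.92 in Ad-FAM3A-labelled aortas (log2 fold change -0.68, SE 0.27). It was the only one of this list at an unadjusted p under 0.05 (5.91% of all genes). Rbm3, the other cold-inducible gene of the list, ran the other way, at 35.8 ± 7.04 and 47.4 ± 16.8 CPM (log2 fold change 0.40, SE 0.22). Mbnl1, a regulator abundant in muscle, was at 501 ± 154 and 632 ± 151 CPM (log2 fold change 0.34, SE 0.22). No gene of these lists was called by edgeR's quasi-likelihood test, whose smallest adjusted p among them was 0.810.

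**Figure D5:**
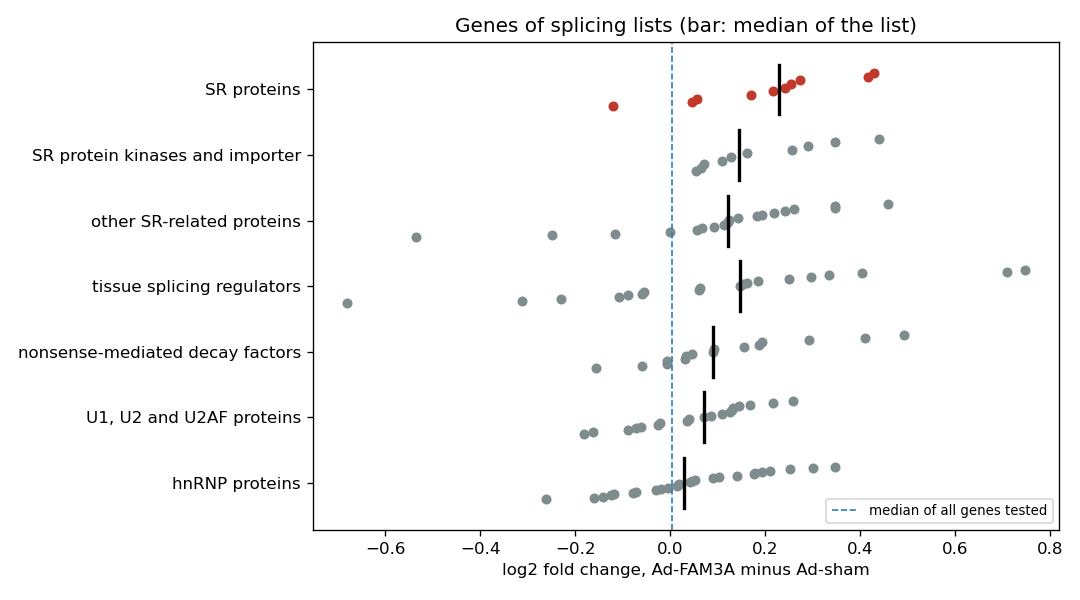
Log2 fold change (labelled Ad-FAM3A minus Ad-sham) of each tested gene of the 7 splicing lists, with 1 point per gene, a black bar for the median of the list and a dashed line for the median of all 15811 genes. The SR genes (red) have a median of 0.23, the kinases and importer 0.15, the tissue regulators 0.15 and the hnRNP proteins 0.03.

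Other gene groups also differed in level among these aortas. The 14 heat shock genes summed to 3768 to 7615 CPM in Ad-sham and 5827 to 11897 CPM in Ad-FAM3A-labelled aortas. The log2 fold change was above 0 for 12 of them (50.4% of all genes), and 7 were higher at an unadjusted p under 0.05 (2.98% of all genes), with 0 called and a median of 0.54. The cytosolic chaperone gene Hspa1b, whose reads can be confused with those of its near-identical copy Hspa1a, was at 49.3 ± 36.1 and 178 ± 114 CPM (log2 fold change 1.86, SE 0.49). The mean log2 CPM of this list had an r of 0.67 with Srsf7 over the 13 aortas and of 0.31 within groups. Of 16 immediate-early genes, 14 had a log2 fold change below 0 (median -0.42). At an unadjusted p under 0.05, 3 of the 16 were lower (2.93% of all genes), with 0 called. The mean of the immediate-early genes had an r of -0.53 with Srsf7 (-0.37 within groups). The 8 adipocyte markers all had log2 fold changes below 0 (median -0.64), with an r of -0.44 with Srsf7 (-0.30 within groups). So did the 8 Schwann cell markers (median -0.51), with an r of -0.54 (-0.46 within groups), and the 5 tested kidney tubule markers (median -0.75), with an r of -0.43 (-0.24 within groups). Ad-FAM3A3 stood above its group for the kidney tubule markers, at a mean log2 CPM of 5.20, with 1.66 in the next aorta (Ad-FAM3A2). The group medians of this mean were -1.06 in Ad-FAM3A-labelled aortas and 2.39 in Ad-sham. The size of the kidney tubule difference without Ad-FAM3A3 was not tested. The smooth muscle markers, 8 of 8 above 0 (median 0.33), had an r of -0.03 with Srsf7 (-0.32 within groups). The B-cell markers had log2 fold changes above 0 for 8 of 8 (median 2.29), but the high sums came from Ad-FAM3A6 and Ad-FAM3A7 alone, and the median of their sum was lower in Ad-FAM3A-labelled aortas (21.5 CPM) than in Ad-sham (28.8 CPM). They had an r of 0.17 with Srsf7 (-0.01 within groups), and the T-cell markers, which summed to 12.5 to 163 CPM in Ad-sham and 11.1 to 434 CPM in the others, of 0.32 (0.32 within groups). The fibroblast markers (8 of 8 below 0, median -0.28) had an r of -0.23 with Srsf7 (0.03 within groups) and the sympathetic neuron markers (8 of 8 below 0, median -0.71) of -0.21 (-0.33 within groups). The cell division genes (8 of 8 above 0, median 0.56) had an r of 0.35 (0.41 within groups), and the liver markers (7 of 7 tested above 0, median 1.41) of -0.15 (-0.56 within groups). Single aortas stood out in both lists. The cell division genes summed to 430 CPM in Ad-FAM3A6, with a median of 77.3 CPM in its group and 53.8 in Ad-sham. The 8 listed liver markers summed to 430 CPM in Ad-FAM3A1, with a median of 26.2 CPM in its group and 17.4 in Ad-sham. For the endothelial, macrophage, cardiac and skeletal muscle lists, which were divided in direction, r lay between -0.16 and 0.15. Within groups it lay between -0.10 (skeletal muscle) and 0.31 (cardiac muscle). The 6 other splicing lists and the heat shock and immediate-early lists held 139 tested genes. Of these, 17 had an unadjusted p under 0.05 (5.91% of all genes). The count fell to 9 without Ad-sham3, 9 without Ad-sham5, 10 without Ad-FAM3A5 and 11 without Ad-sham4. It rose to 23 without Ad-sham1, 20 without Ad-FAM3A1, 20 without Ad-FAM3A3 and 19 without Ad-FAM3A2. No marker of these lists was at 0 in every aorta. The part of heat shock genes, immediate-early genes, tissue composition and depth in the SR gene values was not tested.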

How the data were processed

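Aortic RNA from 13 ApoE-/- mice was sequenced, 1 library per aorta, grouped as Ad-sham (6) or Ad-FAM3A (7) by the labels. Hisat2 (alignment to GRCm38) and FeatureCounts (counting on genes) were the tools of the authors, who deposited raw counts per aorta and mean FPKM per group; 0 columns were left unmapped. The annotation release and strand setting are not given in the sources used here. The labels name an RNeasy kit with a SMARTER library kit, and the methods TRIzol with a New England Biolabs kit.

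Counts were scaled by TMM and compared by edgeR 4.0.16 (R 4.3.3) with the quasi-likelihood test, Benjamini-Hochberg adjustment over 15811 genes and calls at an adjusted p under 0.05 and an absolute log2 fold change above 1. The SE is the absolute log2 fold change over the root of the F statistic. Log2 CPM used a prior count of 2. Alternatives were DESeq2 1.42.0, limma-voom (limma 3.58.1), other scalings, filters and gene lengths, a replicate block, and leaving out aortas. Leaving out Ad-FAM3A6 with Ad-FAM3A7 and the GENCODE transcript and union exon lengths were added after seeing the data.

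The 10 members and all gene lists were chosen with earlier results of these data known. The genes named are the members, the listed genes, genes overlapping a member, the 5 most correlated with Srsf7 or with the mean of the 10, and Fam3a and Apoe. Coordinates are those of the deposited table. They matched GENCODE M21 for 9 of 10 members, and differed for Srsf7. Promoters are RefSeq (GRCm38.p6) and matched 10 of 10 members by symbol. P-values measure the spread between these aortas.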

Additional observations from a re-analysis of the deposited data

Results flagged for a closer look

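Within groups of 6 or 7 aortas, 66 sets of values (members and lists) were examined for an aorta far from its group, and 6 were found, where about 3.3 would arise by chance at this limit. Srsf4 was at a log2 CPM of 3.57 in Ad-sham1, under the other Ad-sham aortas at 4.06 to 4.23. Srsf10 was at a log2 CPM of 7.30 in Ad-FAM3A5, above the other aortas of its label at 6.63 to 6.88. Ad-FAM3A2 was below its group for the mean log2 CPM of the other SR-related proteins, at 5.56 against 5.90 to 6.15, and for that of the tissue splicing regulators, at 4.55 against 4.86 to 4.98. The T-cell markers were at a mean log2 CPM of 3.65 in Ad-sham4 (others 0.65 to 1.61), and the cardiac muscle markers at 5.01 in Ad-FAM3A6 (others 1.66 to 2.73).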

How the results depend on the processing

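DESeq2 called 10 genes, 9 of them higher and 1 lower in Ad-FAM3A-labelled aortas, where edgeR's quasi-likelihood test called 0, and 0 SR genes were called under any alternative. Of 220 log2 fold changes of the 10 SR genes under 22 settings, 3 changed sign, for Srsf4 (-0.02 without Ad-sham1) and Srsf9 (-0.01 without Ad-sham1 and without Ad-FAM3A2). Their median was 0.17 (without Ad-sham3) to 0.28 (without Ad-sham1) on leaving out each aorta, and 0.13 without Ad-FAM3A6 and Ad-FAM3A7. Of the 9 neighbouring pairs by level, 4 differed. Under the alternatives only pairs that differed in the direction of the main order are counted. There were 3 without Ad-FAM3A6 and Ad-FAM3A7 and 3 to 6 on leaving out each aorta. With the transcript length there were 6 and with the GENCODE union length 3. A pair that turned, such as Srsf7 and Srsf1 with the union length, is not in these counts. In the Ad-sham aortas alone 0 pairs differed in that direction, and in the Ad-FAM3A-labelled aortas alone 0. The smallest exact permutation p there is 0.0312 and 0.0156 before adjustment. The replicate numbers do not pair the aortas, since 3 of 6 same-numbered pairs had a correlation above 0.1 (-0.33 to 0.45) and 1 aorta was closest to its own number. With the replicate number as a block the median was 0.18, 0 genes were called and 620 had an unadjusted p under 0.05 (8 in the lists). The coding length of a protein table was not run. The gene-level counts limit the values to whole genes, without isoforms.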
